A study of Mus musculus with 23 samples.

Results

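The genotype contrast under drug treatment was examined in mouse brain: 6 libraries from mice heterozygous for a Grin2b mutation (HT) against 5 libraries from wild-type mice (WT), both given DCS. These 11 libraries are those titled as DCS-treated among 23 in the series, and all genes with a mean normalised read count of at least 10 over the 23 libraries were compared, 17256 of the 18848 in the table. The series title names the mutation as C456Y. All mice were male, of strain C57BL/6J and at postnatal day 17. The labels name the tissue as brain, with no region, and the treatment as DCS with no dose, route or duration. The other 12 libraries, 6 HT and 6 WT given vehicle, share no library with the DCS contrast and are given beside it. Nothing in the labels says that the libraries come from separate mice. The p-values therefore speak of the spread among these samples, and that spread may be technical.

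Grin2b encodes GluN2B, a glutamate-binding subunit of the NMDA receptor, the calcium-permeable glutamate receptor that opens when glutamate and a co-agonist (glycine or D-serine) are bound together. GluN2B dominates forebrain NMDA receptors around birth and is joined by GluN2A as synapses mature. The letters DCS usually stand for D-cycloserine, which binds the co-agonist site as a partial agonist and raises NMDA receptor activity. At this age oligodendrocytes are laying down myelin in much of the mouse brain, and inhibitory neurons are acquiring the channels and synaptic proteins of fast firing.

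No gene passed an adjusted p of 0.05 between HT DCS and WT DCS (limma on log2 of the normalised count plus 1, Benjamini-Hochberg adjustment over 17256 genes, 0% called). The smallest adjusted p was 0.225, shared by Col6a1, Nrn1l and Syt2. At an unadjusted p under 0.05, 590 genes (3.42%) were higher and 712 (4.13%) lower in HT DCS, 1302 in all, where 863 would be found if p-values were uniform. The list counts that follow are read against those 2 shares. The lists were chosen with earlier results of these data known, so the counts describe the lists and do not test them. All 6 HT DCS libraries lay above all 5 WT DCS libraries for 29 genes (0.168%) and below them for 42 (0.243%). The mean was lower in HT DCS for 8655 genes (50.2%), and the median log2 difference over all genes was -3e-04. The difference between the genotype contrast under DCS and that under vehicle, tested as an interaction, passed for 0 genes (0%), with a smallest adjusted p of 0.984 and 756 genes at an unadjusted p under 0.05. Since no gene passed, the values below describe differences that the adjusted test did not call.

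Normalised counts summed to between 32.3 M and 33.5 M in the DCS libraries, and the depth before scaling, estimated from steps between the lowest values, lay between 25.6 M and 35.6 M reads and was smallest in HT DCS replicate 5. HT DCS replicates 5 and 6 stood apart in Hox genes of the caudal hindbrain. These mark the medulla and spinal cord end of the brain. Of 12 with values, 9 passed the filter on the mean, and their counts were low. Their mean log2 level was 2.03 and 2.19 in those 2 libraries. It was 4.07 to 4.83 in HT DCS replicates 1 to 4 and 3.91 to 5.01 in WT DCS. The vehicle libraries also had lower Hox levels in HT, 3.21 to 4.68 against 3.97 to 5.03 in WT. The vehicle contrast given beside the lists below shares that difference. HT DCS replicate 5 was also the lowest of the 11 in cerebellar genes (10.72) and in monoamine and brainstem glycine neuron genes (7.45). Replicate 6 read 11.02 and 7.74 there. Replicates 5 and 6 were also the 2 lowest of the 11 in lists that mark no region. Their levels were 15.07 and 15.09 for mitochondrially encoded mRNAs (15.19 to 15.52 in the others) and 11.20 and 11.31 for ribosomal protein genes (11.34 to 11.43). For nuclear oxidative phosphorylation genes they were 11.40 and 11.44 (11.48 to 11.61). Why was not tested. WT DCS replicate 2 had the highest microglia level (8.63) and choroid plexus level (7.41) of the 11. Without HT DCS replicates 5 and 6, 713 genes had an unadjusted p under 0.05, below the 863 of uniform p-values. The smallest adjusted p was then 0.998. In bulk tissue, fewer cells of a type and less RNA per cell cannot be told apart, nor can either be told from a different share of brain regions in the sample.

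The mutated gene's own mRNA differed between the groups by less than its spread among libraries. Grin2b (ENSMUSG00000030209, GRCm38 chr6:135713233-136173511, minus strand) had normalised counts from 15564 to 20959 with a median of 19255 in HT DCS. The WT DCS libraries held 17347, 15207, 20202, 19371 and 21725. The groups overlapped throughout, with a log2 difference of 0.018 ± 0.089 (SE, 95% interval -0.17 to 0.20). A missense change need not alter the amount of its own mRNA, so this value does not check the genotype labels. Grin1, which encodes the obligatory GluN1 subunit, differed by 0.007, and Grin2a, the GluN2A gene, by -0.012. Of the 7 subunit genes, 4 were higher and 3 lower in HT DCS, none at an unadjusted p under 0.05, with a median of 0.007. The count and the sign of that median rest on single libraries: 6 of 7 were lower without WT DCS replicate 2 (median -0.030), and 6 of 7 without HT DCS replicates 5 and 6 (-0.033). The median was also below 0 without HT DCS replicate 4, HT DCS replicate 5 or WT DCS replicate 1. The other members were Grin2c at -0.069, Grin2d at 0.019, Grin3a at 0.049 and the low-abundance Grin3b at -0.23 ± 0.25 (SE).

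Syt2 had the smallest p among the lower genes. It encodes synaptotagmin 2 (ENSMUSG00000026452, chr1:134646677-134762593, plus strand), the calcium sensor of fast transmitter release at brainstem and parvalbumin-neuron synapses. HT DCS libraries ran from 3967 through a median of 4458 to 5082, and the WT DCS libraries held 5760, 5808, 5337, 5650 and 5441. Every HT DCS library was below every WT DCS library, and the mean was 0.794 times that of WT. The log2 difference was -0.34 ± 0.067 (SE, adjusted p = 0.225). Under vehicle, Syt2 differed by -0.20 ± 0.064 (SE, unadjusted p = 0.00427), and the interaction was -0.13 (unadjusted p = 0.161). The difference was -0.26 (adjusted p = 0.998) without HT DCS replicates 5 and 6. It was -0.25 within replicate numbers 1 to 3 and -0.42 within numbers 4 to 6 (replicates 4 and 5 in WT DCS).

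Hpca encodes hippocalcin, a neuronal calcium sensor abundant in hippocampal and striatal neurons. Its counts were 9232 to 10804 in HT DCS, with a median of 10344, and 11979, 11201, 11667, 10990 and 11162 in WT DCS. The groups did not overlap, at a log2 difference of -0.16 ± 0.035 (SE, adjusted p = 0.335), and the vehicle libraries differed by -0.10 (unadjusted p = 0.00417). Nefm, the medium neurofilament subunit of large axons, lay between 9495 and 11146 in HT DCS with a median of 10611. In WT DCS it stood at 12533, 11640, 11235, 11576 and 11610. Here too the groups were apart, by -0.17 ± 0.042 (SE, adjusted p = 0.498), with -0.10 under vehicle (unadjusted p = 0.0173). Syt2, Hpca and Nefm were the 3 of the 12 lower genes with the smallest p that also reached an unadjusted p under 0.05 in the same direction under vehicle.

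Smad7 encodes the inhibitory SMAD that shuts off TGF-beta receptors. HT DCS libraries lay in a narrow band from 700.1 to 762 with a median of 739. WT DCS libraries held 878, 960, 867, 846 and 803. The groups did not overlap, at -0.25 ± 0.058 (SE, adjusted p = 0.455). Under vehicle the difference was -0.027 (unadjusted p = 0.628), and the vehicle means were 770 ± 70 in HT and 783 ± 47 in WT (SD, n = 6 each). The WT DCS mean of 871 ± 58 (SD, n = 5) was the highest of the 4 groups.

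Unc13c, which encodes the vesicle priming protein Munc13-3 of cerebellar granule cells, read 2651 to 2829 in HT DCS (median 2745) and 3046, 3047, 2985, 3241 and 3047 in WT DCS. Lynx1, a membrane-anchored modulator of nicotinic receptors that limits adult cortical plasticity, read 13806 to 15594 (median 15071) against 17215, 16120, 16196, 16129 and 16027. Neither gene's groups overlapped, and the log2 differences were -0.16 and -0.13 (adjusted p = 0.498 for both). The remaining genes of the 12 were Cdc42ep2, a Cdc42 effector (-0.25), Cog4 of the Golgi tethering complex (-0.15), Sema4d, a semaphorin of oligodendrocytes (-0.16), Mbd3, a subunit of the NuRD chromatin complex (-0.15), Commd9 (-0.35) and Frmd8 (-0.29). Of these 6, Sema4d and Mbd3 had groups that did not overlap.

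**Figure D1:**
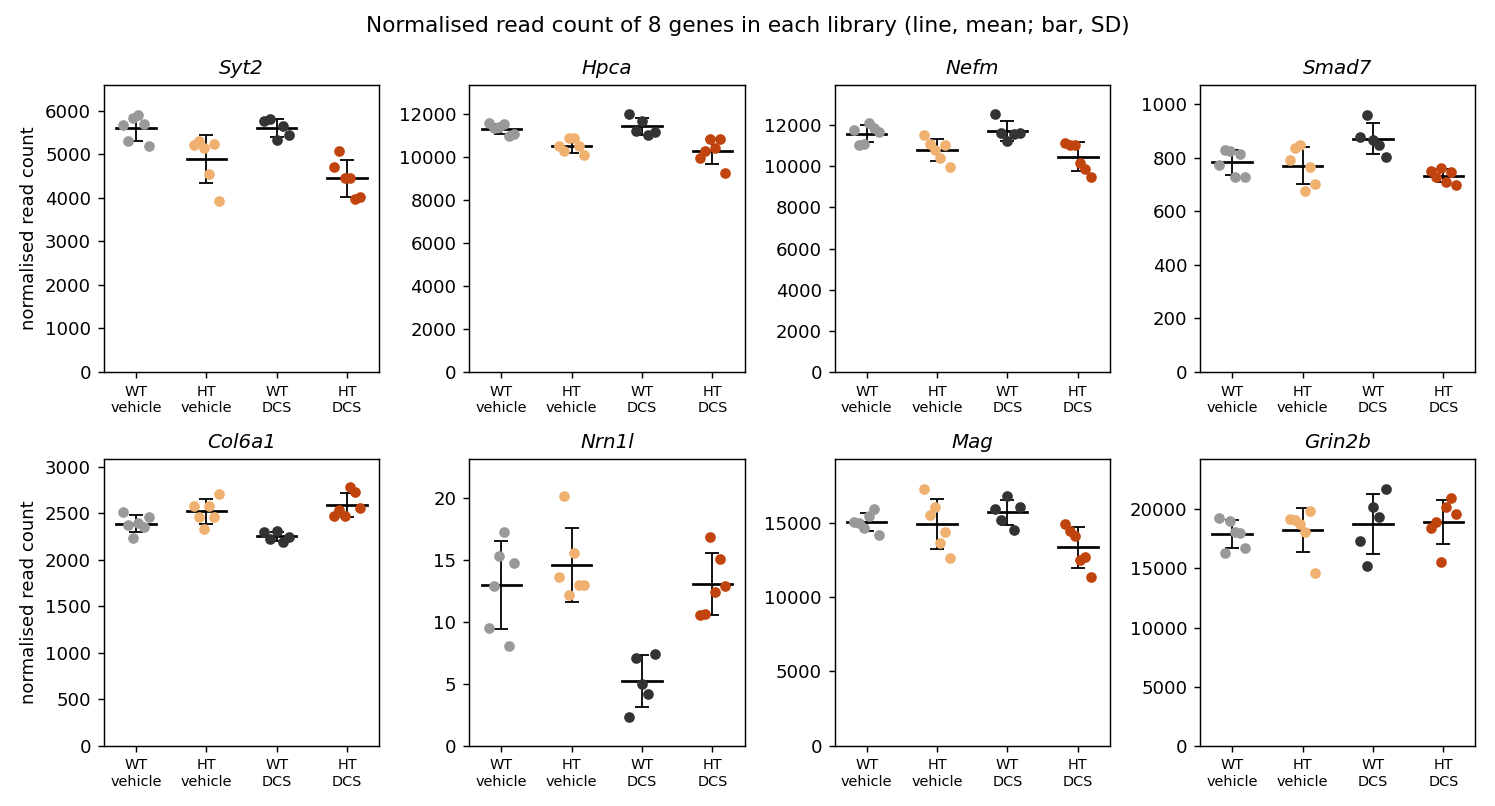
Normalised read count (vertical axis, from 0) of 8 genes in each library of the 4 groups; points are libraries, lines are means and bars are SD (5 WT DCS libraries, 6 in each other group). Syt2, Hpca, Nefm and Smad7 lie lower in every HT DCS library than in any WT DCS library, Col6a1 and Nrn1l higher, while Mag and Grin2b overlap.

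Among higher genes, Col6a1 had the smallest p. It encodes the alpha-1 chain of collagen VI, a matrix protein of meninges and vessels (ENSMUSG00000001119, chr10:76708792-76726168, minus strand). HT DCS libraries ran from 2467 through a median of 2546 to 2777, and WT DCS libraries held 2298, 2222, 2305, 2196 and 2248. All HT DCS libraries were above all WT DCS libraries, at a log2 difference of 0.20 ± 0.040 (SE, adjusted p = 0.225), a mean 1.15 times that of WT. The vehicle difference was 0.076 (unadjusted p = 0.0547).

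Nrn1l, a relative of the neurite-promoting protein neuritin, showed the largest difference of the 24 genes, at very low counts. HT DCS libraries read 10.6 to 16.8 with a median of 12.7, and WT DCS libraries read 2.35, 7.07, 4.96, 4.17 and 7.40. The log2 difference was 1.24 ± 0.25 (SE, adjusted p = 0.225), on a scale where the added 1 understates the change of such a low gene. Both vehicle groups read near the HT DCS level, 14.6 ± 2.98 in HT and 12.95 ± 3.55 in WT (SD, n = 6 each), so the WT DCS libraries were the low group of the 4. The interaction was 1.06 (unadjusted p = 0.00489, adjusted p = 0.984).

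Abi1 encodes a subunit of the WAVE actin-nucleating complex found in dendritic spines. It ranged from 3082 to 3709 in HT DCS with a median of 3295, and stood at 2955, 2828, 2899, 2757 and 2854 in WT DCS. The groups did not overlap (log2 difference 0.22 ± 0.048 SE, adjusted p = 0.335). Tnrc18 (0.24, adjusted p = 0.292) and Shkbp1, a regulator of receptor endocytosis (0.28, adjusted p = 0.258), had smaller p-values than Abi1 but overlapped between groups. Bbc3, the p53-induced killer PUMA (0.41), Tmem170b (0.17) and the transcription factor Dmrt2 (0.69) were higher in all 6 HT DCS libraries than in any WT DCS library. Dmrt2 was low, at 27.1 to 53.6 in HT DCS against 22.4 to 24.9 in WT DCS. The other 4 of the 12 overlapped between groups: Arhgap29, a GTPase-activating protein (0.30), Frrs1, a ferric reductase (0.92), Thbs4, a matrix protein that astrocytes secrete (0.44), and the receptor gene Gpr179 (0.72).

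The vehicle libraries gave the same genotype contrast in libraries that do not enter the DCS differences, although they do enter the shared estimate of spread behind the p-values that ranked the genes. Of the 12 lower genes, 11 were also lower in HT under vehicle, with a median of -0.060 against -0.17 under DCS. Of the 12 higher genes, 9 were also higher, with a median of 0.048 against 0.36. Over all genes tested, 53.5% of those lower and 53.0% of those higher under DCS had the same sign under vehicle, and the Pearson r of the genotype differences across genes was 0.03. Genes are not independent replicates. For the 42 genes with all HT DCS libraries below WT DCS, 31 were lower under vehicle, 6 of them at an unadjusted p under 0.05. For the 29 genes above, 21 were higher under vehicle, 1 of them at that p. The interaction contains the DCS contrast that ranked these genes, so its unadjusted p-values for them are not independent of that choice.

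Genes of fast-firing neurons leaned lower in HT DCS. These are the genes of neurons that fire long trains of brief spikes, such as parvalbumin interneurons and brainstem relay neurons: Kv3 potassium channels, sodium channel subunits, neurofilaments and synchronous release proteins. Of 23 measured genes, 21 were lower and 9 (39.1%, against 4.13% of all genes) were lower at an unadjusted p under 0.05, with none higher at that p. The median log2 difference was -0.11, against -3e-04 over all genes. Vehicle libraries gave 20 of 23 lower, with a median of -0.058, and the same 20 genes were lower in both. The 9 members at a low p under DCS include Syt2 and Nefm, already named for their small p. That share is therefore not independent of the genes described above.

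After Syt2 and Nefm, the members with the smallest p were Vamp1 and Scn4b. Vamp1, the vesicle SNARE of fast synapses, ran from 5462 through a median of 6956 to 7329 in HT DCS, and stood at 7962, 8154, 7207, 7209 and 7726 in WT DCS. The groups overlapped slightly, since 2 WT DCS libraries lay below the highest HT DCS library. Its difference was -0.19 ± 0.054 (SE, adjusted p = 0.596) under DCS and -0.17 ± 0.051 (SE, unadjusted p = 0.00329) under vehicle. Scn4b encodes the sodium channel beta-4 subunit, which allows resurgent current. It ran from 3173 through 4157 to 4866 in HT DCS against 5700, 5109, 5392, 4437 and 4539 in WT DCS, overlapping, at -0.29 ± 0.089 (SE, adjusted p = 0.596), and at -0.22 under vehicle (unadjusted p = 0.0173). The other 5 members at an unadjusted p under 0.05, named after their values were seen, were Kcnab1 (-0.11), Cplx1 (-0.094), Kcnc1 (-0.20), Nefh (-0.15) and Nefl (-0.079). Pvalb, parvalbumin itself, also named afterwards, was at -0.12 (unadjusted p = 0.0877).

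**Figure D2:**
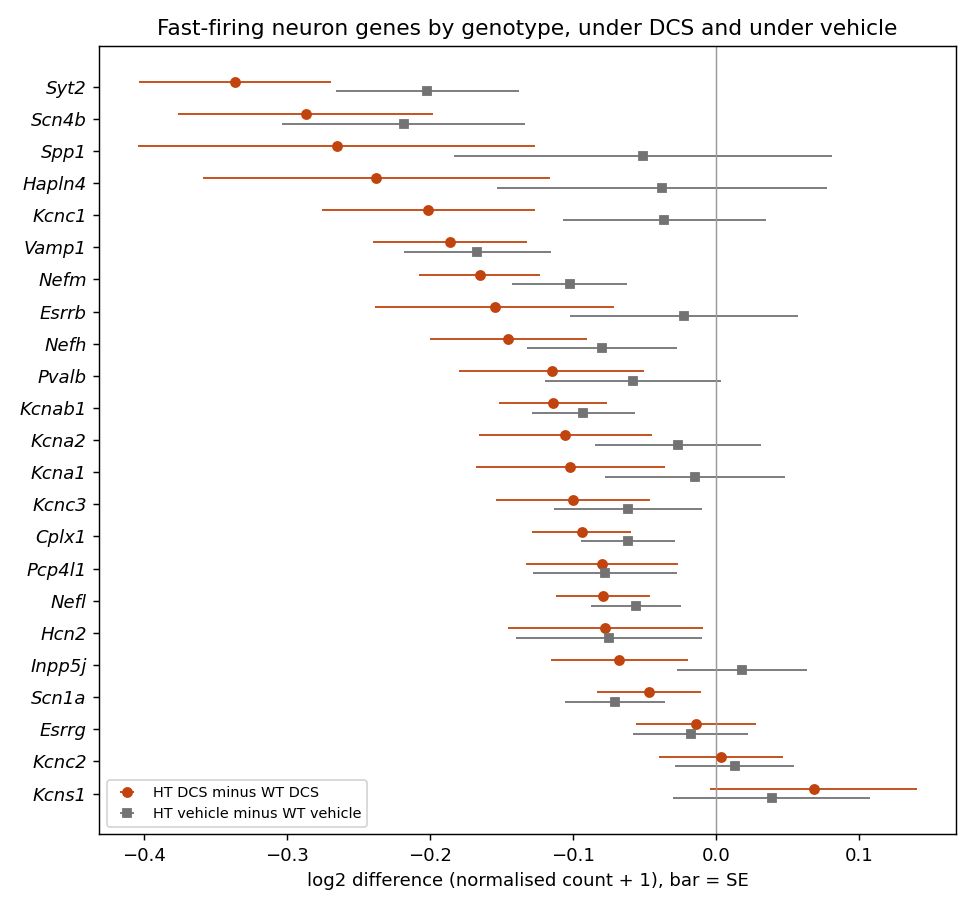
Log2 difference between HT and WT (horizontal axis, 0 is no difference) of the 23 measured fast-firing neuron genes under DCS (circles) and under vehicle (squares); bars are SE from the fit over 23 libraries. Under DCS 21 of the 23 circles lie left of 0, and under vehicle 20 of the squares do, with Syt2 and Scn4b farthest left under DCS.

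The mean log2 level over these 23 genes was 11.82, 11.77, 11.81, 11.71, 11.64 and 11.52 in HT DCS replicates 1 to 6, and 11.94, 11.87, 11.83, 11.78 and 11.78 in WT DCS. HT DCS replicates 5 and 6, which had the low Hox levels, were the 2 lowest of the 11, and 4 of the 6 HT DCS libraries were below the lowest WT DCS library. Without those 2 libraries, 18 of 23 members were lower, with a median of -0.053 and 4 members at an unadjusted p under 0.05. Within replicate numbers 1 to 3, where the Hox level was 4.40 to 4.83 in HT DCS and 3.91 to 5.01 in WT DCS, 22 of 23 were lower with a median of -0.051. Within numbers 4 to 6 the count was 21, with a median of -0.15.

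Neighbouring lists of axonal and synaptic genes leaned the same way with smaller counts, and some of their members are also in the fast-firing list. Of 24 genes of the node of Ranvier and paranode, where sodium channels and myelin loops meet the axon, 16 were lower and 4 of them at an unadjusted p under 0.05: Cntnap1 (-0.12) and Cntn2 (-0.13), adhesion proteins of the axon beside the node, Epb41l3 (-0.12), the protein 4.1B that anchors them, and Scn4b. Epb41l3 groups did not overlap, with 7942 to 9009 in HT DCS and 9391, 9768, 9199, 9302 and 9132 in WT DCS. Of 23 neuronal calcium sensors and buffers, 17 were lower, 4 at an unadjusted p under 0.05. These were Hpca, its relative Hpcal1 (-0.19, 2011 to 2682 against 2605 to 2959), Cabp7 (-0.20) and Calb2, calretinin (-0.087). Of 40 genes of synaptic vesicle release, 24 were lower and 16 higher, with 6 and 2 at that p and a median of -0.009. The 4 smallest p-values in it were those of Syt2, Unc13c, Vamp1 and Cplx1. Of these, Syt2, Vamp1 and Cplx1 are fast-firing members, as is Scn4b of the node list. Under vehicle 13 of the 24 node genes were lower (median -0.003) and 17 of the 40 release genes (0.006). For the 23 calcium sensors and buffers it was 17 (-0.038). Without HT DCS replicates 5 and 6, 12 of the 23 calcium sensors and 18 of the 40 release genes were lower, and 21 of the 24 node genes. The release median changed sign with single libraries left out, from -0.025 without WT DCS replicate 2 to 0.006 without HT DCS replicate 3.

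Of the 45 lists, the myelin list had the largest share of members at an unadjusted p under 0.05. All 35 measured myelin and mature oligodendrocyte genes had a lower mean, 19 of them (54.3%, against 4.13% of all genes) at that p, and the median log2 difference was -0.19. None of the 35 passed adjustment, and none had groups without overlap. The p-values rest on 1 spread per gene shared by the 4 groups, and with only DCS libraries in the fit 9 members reached that p. The SD of the list level was 0.22 in HT DCS and 0.13 in WT DCS, against 0.12 in HT vehicle and 0.08 in WT vehicle. Under vehicle 34 of 35 were lower, with a median of -0.087.

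Mag, the myelin-associated glycoprotein of the inner myelin layer, had the smallest p of the list. It read 11367 to 14918 in HT DCS with a median of 13431, and 15901, 15185, 16787, 14521 and 16085 in WT DCS. Only WT DCS replicate 4 lay inside the HT DCS range. The log2 difference was -0.24 ± 0.069 (SE, unadjusted p = 0.00222, adjusted p = 0.596), with -0.016 under vehicle and an interaction of -0.22 (unadjusted p = 0.0295, adjusted p = 0.984).

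Cnp, an enzyme of uncompacted myelin, read 19471 to 26861 (median 23414) against 27068, 27279, 27186, 24975 and 25902, a difference of -0.19 ± 0.061 (SE). Mog, an outer-surface myelin protein, read 3546 to 5796 (median 4578) against 5662, 5758, 5496, 4785 and 5344, a difference of -0.24 ± 0.089 (SE). Both overlapped between groups, with HT DCS replicate 6 the lowest library for each. Other members with a small p were the connexin Gjb1 (-0.34), which couples oligodendrocytes, the tight junction protein Cldn11 (-0.24), Plekhh1 (-0.25) and Gal3st1, which makes the myelin lipid sulfatide (-0.18). Mbp, the myelin basic protein, named after its value was seen, was at -0.19. The largest difference in the list, also named afterwards, was that of Trf, the iron carrier transferrin, at -0.53 ± 0.21 (SE).

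**Figure D3:**
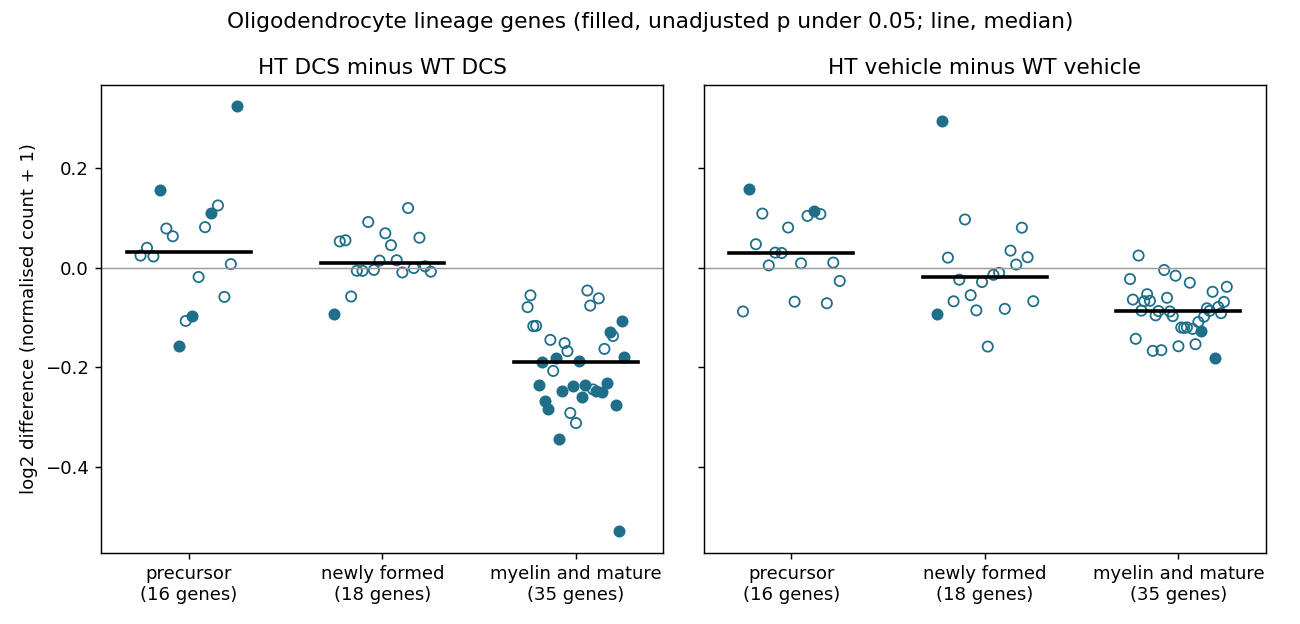
Log2 difference between HT and WT of each gene in 3 lists of the oligodendrocyte lineage, under DCS (left) and under vehicle (right); filled points have an unadjusted p under 0.05 and lines are list medians. Under DCS the precursor and newly formed lists centre near 0, at 0.032 and 0.009, while every myelin point lies below 0 around a median of -0.19.

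Genes of earlier stages of the same lineage were divided between both directions. Of 18 genes of newly formed oligodendrocytes, 10 were higher and 8 lower, with a median of 0.009 (0 without WT DCS replicate 2, 0.041 without WT DCS replicate 4). Bcas1, a marker of cells that are starting to myelinate, was the 1 member at an unadjusted p under 0.05, at -0.094 under DCS and -0.094 under vehicle. Of 16 precursor genes, 11 were higher and 5 lower, with a median of 0.032 (0.003 without WT DCS replicate 1). At that p, Ednrb (0.16), the proteoglycan Vcan (0.32) and the growth factor receptor Pdgfra (0.11, named after its value was seen) were higher, and the transcription factor Olig1 (-0.096) and Megf11 (-0.16) were lower. These are 18.8% and 12.5% of the list, against 3.42% and 4.13% of all genes. Whether the 3 stages differ from each other was not tested.

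The mean log2 level over the 35 myelin genes was 11.61, 11.49, 11.70, 11.33, 11.36 and 11.10 in HT DCS replicates 1 to 6, and 11.67, 11.78, 11.69, 11.45 and 11.56 in WT DCS. The groups overlapped, since HT DCS replicates 1 to 3 lay within the WT DCS range, and HT DCS replicates 4, 5 and 6 lay below it. Replicates 5 and 6 were the libraries with Hox levels of 2.03 and 2.19, while replicate 4 had 4.07. Without replicates 5 and 6, 34 of 35 members were lower, with a median of -0.084 and 2 members at an unadjusted p under 0.05. Within replicate numbers 1 to 3 all 35 were lower with a median of -0.10, and within numbers 4 to 6 all 35 with a median of -0.26. In each of the 4 groups, every library numbered 4 or above had a lower myelin level than any numbered 1 to 3. In WT vehicle, for instance, levels were 11.73, 11.71 and 11.66, then 11.54, 11.65 and 11.53. With numbers 1 to 3 against 4 to 6 as a covariate in limma, the median was -0.175 and 26 members had an unadjusted p under 0.05. Leaving out HT DCS replicate 6 alone left 7 members at that p, replicate 5 alone 11 and replicate 4 alone 12. It was 12, 8 and 12 without WT DCS replicates 1, 2 and 3 in turn. What part the brain region makeup of the samples has in these levels was not tested.

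**Figure D4:**
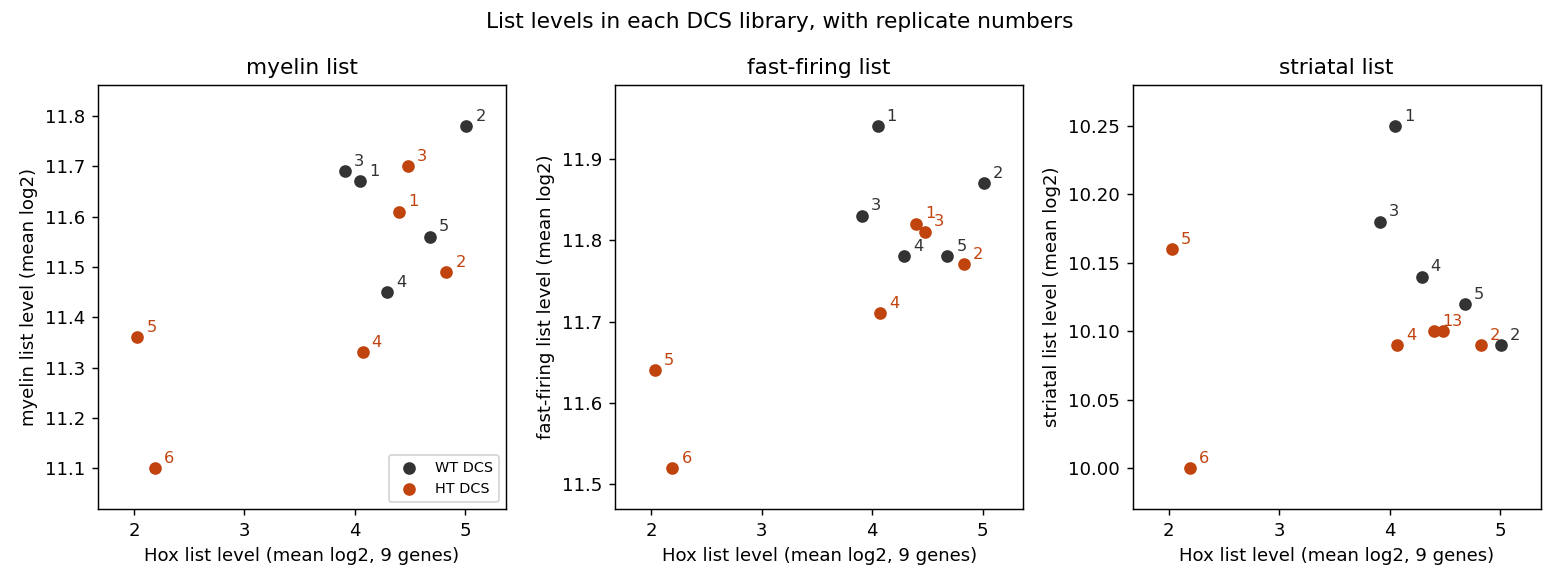
Mean log2 level of the myelin, fast-firing and striatal lists (vertical axes) against the mean log2 level of 9 Hox genes (horizontal axis) in each of the 11 DCS libraries, numbered by replicate. HT DCS replicates 5 and 6 sit alone at the left with Hox levels near 2, the other 9 libraries between 3.91 and 5.01.

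The Hox genes themselves were lower in HT DCS for all 9 tested members, with a median of -0.74 and 3 at an unadjusted p under 0.05. These were Hoxa4 (-1.18), Hoxd3 (-0.94) and Hoxb3 (-0.79), which pattern the embryonic hindbrain and stay on in its adult derivatives. The count was 5 of 9 and the median -0.022 without HT DCS replicates 5 and 6. Within replicate numbers 1 to 3 the count was 1 of 9. Under vehicle all 9 were also lower, with a median of -0.71. HT vehicle replicates 4 and 6 had the lowest vehicle Hox levels, 3.21 each. HT vehicle replicate 6 also had the lowest myelin level (11.34) and fast-firing level (11.63) of the vehicle libraries. In HT vehicle replicate 4 these levels were 11.54 and 11.78, against 11.53 to 11.73 and 11.79 to 11.87 in WT vehicle. Hoxb3 shows the spread: 39.5, 36.9, 22.3, 30.3, 5.87 and 14.0 in HT DCS replicates 1 to 6, and 20.7, 47.5, 27.5, 40.8 and 63.7 in WT DCS. Of 23 cerebellar genes, 19 were lower, with a median of -0.058 and 3 at an unadjusted p under 0.05, and the granule cell receptor gene Gabra6 was at -0.21 (1831 in HT DCS replicate 5). Without HT DCS replicates 5 and 6, 13 of the 23 cerebellar genes were lower with a median of -0.009, and within replicate numbers 1 to 3 also 13, with -0.010. Leaving out HT DCS replicate 5 alone brought that median to -0.020.

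Striatal projection neuron genes were lower in part. Of 24 measured markers of the medium spiny neurons that receive dopamine, 18 were lower and 8 (33.3%) were lower at an unadjusted p under 0.05, with a median of -0.039. Under vehicle 20 were lower, with a median of -0.11. Rasd2, a striatal GTP-binding protein, read 2101 to 2513 (median 2283) in HT DCS and 2901, 2493, 2702, 2487 and 2498 in WT DCS, a difference of -0.18 ± 0.051 (SE, adjusted p = 0.596). Drd2, the dopamine receptor of indirect-pathway neurons, read 552 to 645 (median 611) against 789, 691, 669, 628 and 681, a difference of -0.21 ± 0.069 (SE, adjusted p = 0.606). Both genes overlapped through 1 or more libraries.

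Adora2a, the adenosine receptor of the same indirect-pathway cells, ran from 827 through 989 to 1047 in HT DCS, against 1282, 1043, 1189, 1136 and 1009 in WT DCS. Its difference was -0.23 ± 0.079 (SE, adjusted p = 0.607) under DCS and -0.33 ± 0.075 (SE, unadjusted p = 0.000182) under vehicle. Adcy5, the adenylyl cyclase of striatal neurons, did not overlap, with 7221 to 8174 against 9215, 8249, 8565, 8181 and 8205 (-0.11 ± 0.040 SE). Without HT DCS replicates 5 and 6, 18 of 24 members were lower, the median was -0.048 and 6 members had an unadjusted p under 0.05. Leaving out HT DCS replicate 6, WT DCS replicate 1 or WT DCS replicate 3 alone left 5 members at that p. The median ran from -0.076 without WT DCS replicate 2 to -0.023 without WT DCS replicate 1. The list level was 10.09 to 10.16 in HT DCS replicates 1 to 5 and lower in replicate 6, against 10.25, 10.09, 10.18, 10.14 and 10.12 in WT DCS.

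Genes of the extracellular matrix and vessels leaned higher. Of 43 collagen and basement membrane genes, 27 were higher and 5 of them (11.6%, against 3.42% of all genes) at an unadjusted p under 0.05, with none lower at that p and a median of 0.046. After Col6a1 these were Col15a1 (0.37 ± 0.11 SE), a basement membrane collagen, Hspg2 (0.21), which encodes perlecan, the fibronectin gene Fn1 (0.18) and, named after its value was seen, the laminin gene Lamc3 (0.19). Col15a1 read 311 to 404 (median 353) in HT DCS and 256, 250, 244, 290 and 330 in WT DCS, with 1 WT DCS library inside the HT range. Under vehicle 9 of the 43 were lower and the median was 0.067. With HT DCS replicates 5 and 6 left out, 26 of the 43 were higher, with a median of 0.039 and 3 members at an unadjusted p under 0.05. That count was also 3 without HT DCS replicate 5, HT DCS replicate 6, WT DCS replicate 1 or WT DCS replicate 4 alone, and 8 without HT DCS replicate 3. The median was 0.092 without WT DCS replicate 2. Of 22 brain endothelial genes, 18 were higher, 4 at an unadjusted p under 0.05, with a median of 0.067 under DCS (0.109 without WT DCS replicate 2) and 0.072 under vehicle. They were the transporters Slc16a1 (0.18) and Slc7a5 (0.12), the VEGF receptor Flt1 (0.14) and the surface protein Ly6c1 (0.18). Endothelial levels were 9.55 to 9.76 in HT DCS and 9.52 to 9.70 in WT DCS, and pericyte and smooth muscle levels 7.86 to 8.17 and 7.89 to 8.19. Of 20 meningeal fibroblast genes, which share Col6a1, 8 were higher and 12 lower, while 15 were higher without WT DCS replicate 2.

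In TGF-beta and BMP signalling, 24 of 43 genes were higher and 19 lower, 4 and 2 of them at an unadjusted p under 0.05, with a median of 0.011. Without HT DCS replicates 5 and 6, 25 were lower with a median of -0.017, and the median was also below 0 without HT DCS replicate 5, HT DCS replicate 6 or WT DCS replicate 1 alone. Beside Smad7, which was lower, the ligand Tgfb2 was higher at 0.19 ± 0.051 (SE, adjusted p = 0.596), with 515 to 604 (median 571) in HT DCS and 484, 484, 482, 504 and 523 in WT DCS. Id4, a transcriptional target of BMP signals (0.13), and Ltbp4, which holds latent TGF-beta in the matrix (0.19), were also higher at an unadjusted p under 0.05. All 3 overlapped between groups.

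Synaptic receptor and scaffold genes were divided between both directions. Of 22 AMPA and kainate receptor genes and their auxiliary subunits, 12 were higher and 10 lower, with a median of 0.005. Shisa9 (0.10), Cacng5 (0.087) and Gria2, the subunit that sets calcium permeability (0.11), were higher at an unadjusted p under 0.05. They are 13.6% of the list, against 3.42% of all genes, and no member was lower at that p. Of 25 genes of postsynaptic scaffolds, CaMKII and calcineurin, 16 were higher and 9 lower, none at that p. Of 14 GABA-A receptor genes, 10 were higher, and the 2 at that p were lower: Gabra6 and Gabrd (-0.14), subunits of extrasynaptic receptors of granule cells. All 3 lists turned with WT DCS replicate 2 left out: 13 of the 22 AMPA and kainate genes were then lower (median -0.015), 15 of the 25 scaffold genes (-0.010) and 8 of the 14 GABA-A genes (-0.005). The AMPA and kainate median was also below 0 without WT DCS replicate 5, and 13 of the 25 scaffold genes were lower without HT DCS replicates 5 and 6. Of 16 genes for the supply of D-serine and glycine, the co-agonists whose site DCS binds, 11 were lower. The glycine transporter gene Slc6a9 was the 1 member at that p (-0.16 ± 0.056 SE), with 2143 to 2499 in HT DCS and 2840, 2606, 2753, 2355 and 2394 in WT DCS.

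Activity-induced early genes, which report recent neuronal firing and NMDA receptor signalling, were lower for 29 of 40 members, with a median of -0.047. The lean was smaller without WT DCS replicate 2, when 21 of 40 were lower with a median of -0.010, and with each library left out in turn the median ran from -0.103 (without WT DCS replicate 4) to -0.005 (without HT DCS replicate 2). Jun (-0.15) and Lingo3 (-0.14) were the 2 at an unadjusted p under 0.05. The list level ranged more among libraries of a group than between groups, from 9.44 to 9.97 in HT DCS and from 9.53 to 9.99 in WT DCS. Under vehicle 7 of the 40 were lower and the median was 0.095, and whether the list differs between DCS and vehicle was not tested. Gene by gene, the interaction called none.

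**Figure D5:**
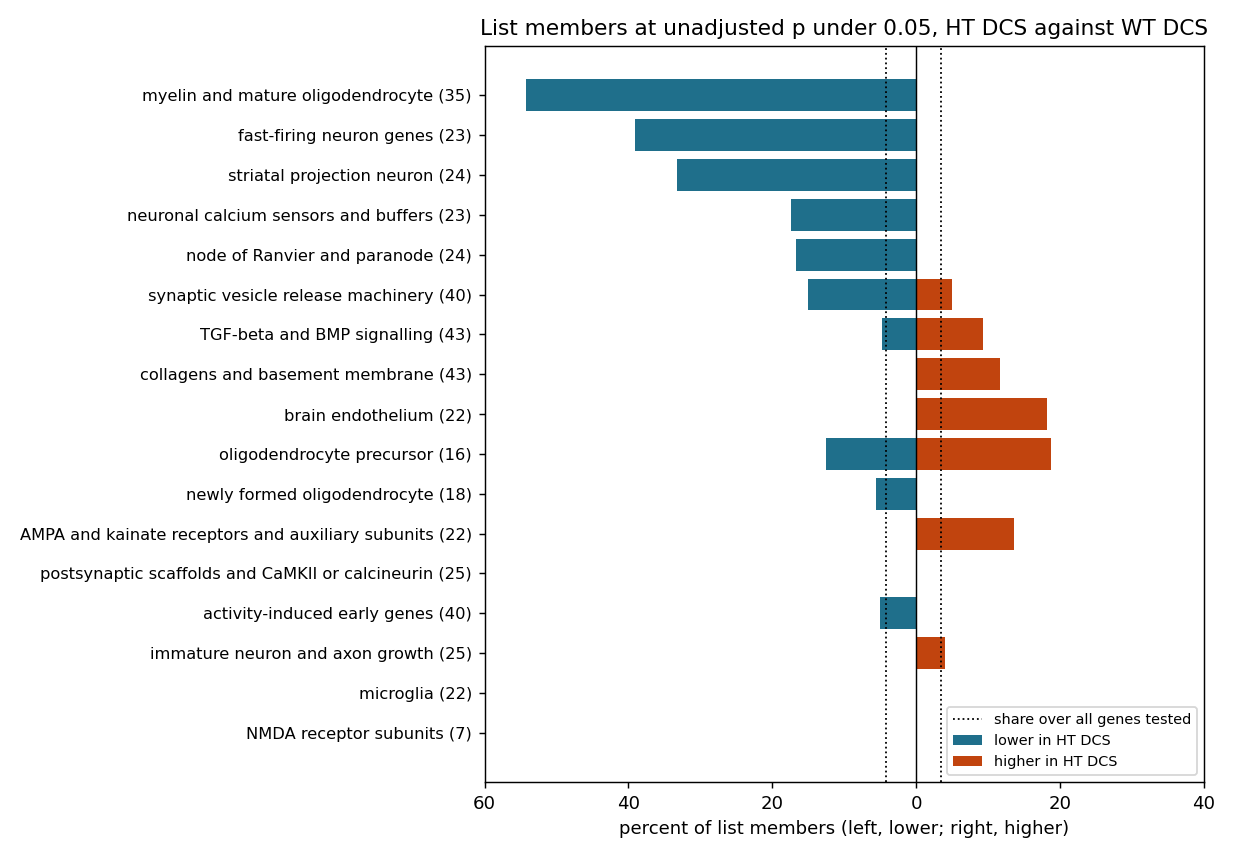
Percent of the measured members of 17 gene lists at an unadjusted p under 0.05 (horizontal axis, lower in HT DCS to the left and higher to the right), with the number of members in parentheses; dotted lines mark the shares over all 17256 genes, 4.13% lower and 3.42% higher. The myelin, fast-firing and striatal lists reach furthest left, at 54.3%, 39.1% and 33.3%. The p-values come from the fit over 23 libraries, and with only DCS libraries 9 myelin members reached that p.

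Some lists leaned mostly 1 way while few members reached a low p. Of 25 genes of immature neurons and axon growth, 23 were higher, with a median of 0.072 (0.035 without WT DCS replicate 2, 0.145 without WT DCS replicate 4, and 0.039 without HT DCS replicates 5 and 6, when 20 were higher), and Basp1, a growth cone protein, was the 1 member at an unadjusted p under 0.05 (0.14). Levels were 11.89 to 12.23 in HT DCS and 11.81 to 12.18 in WT DCS. Of 22 microglia genes, 20 were higher and 0 reached that p, with a median of 0.12. When HT DCS replicates 5 and 6 were left out, 13 of 22 were higher, and without WT DCS replicate 2, which had the highest microglia level, all 22. Within replicate numbers 1 to 3, 15 of 22 were lower with a median of -0.039, and within numbers 4 to 6 all 22 were higher with a median of 0.395. Without WT DCS replicate 4 alone the median was 0.019. Of 85 cytosolic ribosomal protein genes, 65 were lower with a median of -0.038, and of 78 nuclear oxidative phosphorylation genes, 66 were lower with a median of -0.034. At an unadjusted p under 0.05, 7 (8.2%) and 3 (3.8%) of them were lower, against 4.13% of all genes. Rps6 was at -0.16, and Atp5e, a subunit of ATP synthase, at -0.20. The counts of lower genes were 41 of 85 and 34 of 78 without HT DCS replicates 5 and 6, and within replicate numbers 1 to 3 they were 44 and 37. Under vehicle they were 35 of 85 (median 0.010) and 54 of 78 (-0.012).

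The largest differences among genes with a mean of at least 100 and an unadjusted p under 0.01 were as follows. The higher ones were Vsig10l (0.60 ± 0.20 SE), Lsp1 (0.54), a leukocyte cytoskeletal protein, Inpp5d (0.49), which encodes the microglial and blood cell phosphatase SHIP1, Thbs4 (0.44) and the mitochondrial ribosomal protein gene Mrpl23 (0.42). Inpp5d did not overlap between groups, with 219.6 to 334 in HT DCS (median 267) and 202, 204, 186, 178 and 178 in WT DCS. Under vehicle it differed by 0.017 (unadjusted p = 0.909). The lower ones were Rsl1 (-0.50), a KRAB zinc finger gene of a family with close copies whose reads can be split, Gng11 (-0.44), Ormdl2 (-0.44), Mrvi1 (-0.42) and Ccdc167 (-0.41). All 5 overlapped between groups, and of them Mrvi1 was also lower under vehicle at an unadjusted p under 0.05 (-0.33, unadjusted p = 0.0156).

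Within 2 Mb of Grin2b on chromosome 6, 35 genes were tested, with a median log2 difference of -0.001, and 2 had an unadjusted p under 0.05. Dusp16, a MAP kinase phosphatase (chr6:134715468-134792625, minus strand), read 450.0 to 599.8 in HT DCS and 572, 616, 612, 564 and 627 in WT DCS (-0.20 ± 0.070 SE, adjusted p = 0.612). Etv6, a transcriptional repressor (chr6:134035700-134270158, plus strand), was higher at 0.12 ± 0.056 (SE, adjusted p = 0.658). Under vehicle they differed by -0.012 and -0.086. The 3 genes of the Ide copy-number locus, which can vary between C57BL/6J mice, differed by 0.13 ± 0.23 (SE) for Ide, 0.19 for Fgfbp3 and 0.019 for Btaf1, and Ide ranged from 1993 to 3976 in HT DCS and from 1886 to 3039 in WT DCS.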

How the data were processed

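RNA of mouse brain was read in 23 libraries made, per the labels' protocols, with a kit for stranded mRNA. The deposited values are normalised read counts, a scaled signal per gene made by the authors, made per the submitters' processing notes with DESeq2 1.26.0, Salmon 1.1.0, the build GRCm38 and R 3.6.2, whose roles are not given. The values are normalised and not raw read counts, so no count test was run. Gene names and coordinates came from GENCODE M21 (16 identifiers had none). Genes with a mean of at least 10 over 23 libraries were tested with limma 3.58.1 (R 4.3.3) on log2(value + 1), each of the 4 groups having its own coefficient, with trended and robust moderation, two-sided tests and Benjamini-Hochberg adjustment over 17256 genes. The same fit gave the vehicle contrast and the interaction. It was also run on simulated data, with genes drawn independently and 1 dispersion per gene in all groups. Those data hold no shifts shared by many genes of a library and no unequal group spreads, so the run does not bear on either. A list's level is the mean of log2(value + 1) over its members.

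Named genes were the NMDA receptor subunits, the 12 smallest p-values in each direction without predicted gene models, the 5 largest differences in each direction (mean at least 100, unadjusted p under 0.01), the members with the smallest p of each list (up to 8 for myelin and 4 for others) and genes within 2 Mb of Grin2b at an unadjusted p under 0.05. The members and lists were chosen with earlier results of these data known. Alternatives covered the pseudocount, the filter, moderation, quantile normalisation, array weights, the libraries in the fit, a replicate block, numbers 1 to 3 against 4 to 6 as a covariate and each library left out. The values within replicate numbers 1 to 3 and 4 to 6, and without WT DCS replicate 2, were chosen after seeing the data. Some members of the lists are not reported here by name.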

Additional observations from a re-analysis of the deposited data

Results flagged for a closer look

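Within the HT DCS and WT DCS groups, single libraries far from the rest of their group were looked for in 45 list levels and 40 genes, 170 groups of values in all. There were 12, where chance gives about 1 in 20, or 8.5. HT DCS replicate 5 gave 3 of them among mean log2 list levels: hippocampal genes at 9.14 (9.03 to 9.06 in the others), cerebellar genes at 10.72 (10.99 to 11.08) and monoamine and brainstem glycine neuron genes at 7.45 (7.74 to 7.87). Thalamic genes stood at 9.71 in HT DCS replicate 1 (9.62 to 9.65). In WT DCS, hypothalamic neuropeptide genes stood at 6.75 in replicate 1 (6.56 to 6.61), cholesterol synthesis genes at 10.82 in replicate 5 (10.85 to 10.86), and interferon and antigen presentation genes at 6.35 in replicate 4 (6.71 to 6.83).

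Among normalised counts of single genes, Unc13c was 3241 in WT DCS replicate 4 (2985 to 3047 in the others) and Lynx1 17215 in WT DCS replicate 1 (16027 to 16196). Vsig10l was 208 in HT DCS replicate 6 (109 to 146). Grin3b was 44.8 in WT DCS replicate 3 (23.2 to 27.7), and Grin2a was 5519 in WT DCS replicate 2 (5855 to 5907).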

How the results depend on the processing

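No gene passed in 34 of 35 alternative settings. Without HT vehicle replicate 6, which enters only the spread, 1 lower gene did (Syt2, adjusted p = 0.0215, limma). Leaving out each library gave 0 higher genes, 0 to 1 lower and 0 for the interaction, with 952 to 1955 genes at an unadjusted p under 0.05 (lowest without HT DCS replicate 6, highest without replicate 3), 29 to 113 with all HT DCS libraries above and 42 to 149 below. Myelin medians ranged from -0.244 to -0.133 with 7 to 26 members at that p, fast-firing from -0.124 to -0.077 with 7 to 13, collagens from 0.035 to 0.092 with 3 to 8, and striatal from -0.076 to -0.023 with 5 to 9. Without HT DCS replicates 5 and 6 together, 713 genes were at that p, 120 had all libraries above and 116 below, and myelin, fast-firing and collagen members at that p numbered 2, 4 and 3. With a mean of at least 50, 17 genes had all libraries above. Only DCS libraries gave 9 myelin members, and array weights 3 collagen members. Leaving out DCS libraries can only raise the counts with all libraries above or below, and a higher filter can only lower them. Why the other values changed was not tested. With the replicate block, title numbers gave 0 calls, 1330 genes at that p and a smallest adjusted p of 0.196, and description numbers 0 calls, 1388 and 0.052. Numbers 1 to 3 against 4 to 6 as a covariate gave 0 calls, 1414 and 0.116. Deviations from the group means correlated by -0.054 to 0.077 between same-numbered HT DCS and WT DCS libraries. The vehicle libraries were not in that check, so it does not settle whether the numbers pair samples. Sign changes were also looked for in 122 single genes, the named genes at an unadjusted p under 0.05 and the NMDA receptor subunits. Of these, 4 (Grin1, Grin2a, Grin2b, Grin2d) changed sign in at least 1 setting. A steady sign in the others follows in part from choosing them by p. Whether single genes moved by more than their spread was not examined.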
